A study of Mus musculus with 16 samples.

Results

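Nutrient transporters of the solute carrier (SLC) families were examined as a group of 36 genes among the 45513 genes counted, 15323 of which were expressed highly enough to be tested. The members were a list of named genes that take up or pass on sugars, peptides and amino acids, vitamins, nucleosides, monocarboxylates, carnitine, fatty acids, phosphate, sulfate and dicarboxylates. They included *Gm14085*, a paralog of the nucleoside carrier gene *Slc28a2*. No measured value entered the choice by rule, but earlier results of these data were known when the list was made. Each member matched exactly 1 gene of the tables, and all 36 were tested.

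The libraries came from the small intestine of mice carrying Atoh1(WT)CreERT2 and R26RtdTom. In this knock-in, the tamoxifen-inducible recombinase CreERT2 lies downstream of the coding sequence of *Atoh1*, which encodes a transcription factor needed for secretory cells, and it switches on the red reporter tdTomato (tdTom). Per the methods of the study, the animals were males and females of C57BL/6 background aged 8 to 16 weeks, homozygous for the knock-in and heterozygous for the reporter. Per the labels, every mouse had received 1 mg tamoxifen a day on 3 consecutive days, a schedule that the methods also give for the secretory signature. Cells were released from the proximal small intestine after the villus-enriched fraction had been discarded, and live EpCAM+ (epithelial) cells were sorted into tdTom+ and tdTom- fractions. The comparison was between 8 tdTom+ (tdTompositive) and 8 tdTom- (tdTomnegative) libraries, 1 of each from each of 8 mice, with both fractions sharing genotype and treatment. The reporter stays on in the progeny of a labelled cell, and the tdTom- fraction is a mixture of whatever epithelium was not labelled.

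Absorption in the small intestine is carried out by enterocytes, whose brush border holds carriers that draw nutrients in with sodium or protons and whose basolateral membrane holds facilitative carriers and exchangers that pass them to the blood. Several amino acid exchangers work only as a pair of a heavy chain (*Slc3a1* or *Slc3a2*) with a light chain of the Slc7 family. Other SLC carriers, such as GLUT1 and the exchangers ASCT2 and LAT1, are known mainly for feeding dividing or biosynthetically active cells rather than for absorption.

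Total assigned counts were 17116405 to 25323567 per library, at which 3 counts correspond to 0.123 to 0.191 CPM (counts scaled to a common library size). All 8 goblet and all 8 Paneth markers were higher in tdTom+ (log2 fold changes 6.18 to 7.64), and all 8 absorptive markers were lower (-3.65 to -2.39), with a mean log2 CPM over the absorptive genes of 7.43 to 9.44 in tdTom+ and 10.59 to 12.03 in tdTom- libraries. All 8 enteroendocrine markers (1.11 to 4.01) and all 7 tuft markers tested (0.77 to 2.60) were higher in tdTom+ as well, with summed tuft levels of 69.8 to 263 CPM in tdTom+ and 15.3 to 85.1 CPM in tdTom-, and summed enteroendocrine levels of 1944 to 3021 CPM and 569 to 1016 CPM. Markers of several cell types thus moved with the raised carriers, and their part in those results was not tested. Absorptive transcripts were present in the tdTom+ fraction too, in which *Fabp2* alone, a fatty acid binding protein of enterocytes, reached 342 to 919.8 CPM. Of the 8 immune markers 6 were lower in tdTom+, with summed levels of 5.96 to 28.9 CPM in tdTom+ and 10.6 to 148 CPM in tdTom-. Of the 8 stromal markers, the fibroblast genes *Col1a1*, *Col1a2*, *Col3a1*, *Dcn* and *Lum* were at or near 0 in both fractions, and 1 gene, *Vim*, was higher in tdTom+ (log2 3.38), so that the summed level was 18.6 to 45.8 CPM in tdTom+ and 4.12 to 8.40 CPM in tdTom-. Of the 8 stem markers 3 were higher in tdTom+ and 5 passed the threshold in neither direction (log2 fold changes -0.14 to 0.89). The 8 proliferation markers all passed in neither direction (-0.18 to 0.25). The tdTom- library of mouse 7 stood apart, with the lowest absorptive mean (10.59 against 11.47 to 12.03 in the other mice) and the highest stem and proliferation means (6.02 each). Its tuft mean was the lowest (0.24 against 0.74 to 1.92), and its immune mean (3.65) was second to that of mouse 8 (3.84). The tdTom+ library of mouse 7 had the highest Paneth (12.98) and enteroendocrine (7.32) means. Results are therefore also given without that mouse.

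All 36 transporters passed the test in 1 direction or the other (edgeR quasi-likelihood test with the mouse as a replicate block, Benjamini-Hochberg adjusted p under 0.01 over all genes tested). Of these, 31 were lower and 5 were higher in tdTom+ cells. Among all genes tested 55.8% passed, 30.0% as lower and 25.8% as higher, against 86.1% lower and 13.9% higher among the members. The share of lower members was thus above that of all genes, and the share of higher members was below it. The median log2 fold change was -2.29 over the 36 members and 0.02 over all genes tested. Each member moved in its own direction in 8 of 8 mice, and for 34 of the 36 the CPM ranges of the fractions did not overlap. The matching shares over all genes tested were not determined, so whether these counts are particular to the members is not known. In bulk libraries, fewer cells of a type and less RNA per cell cannot be told apart. The 8 goblet markers summed to 128104 to 264225 CPM in tdTom+ and 952 to 1511 CPM in tdTom-. The 8 Paneth markers summed to 52683 to 139451 CPM in tdTom+ and 405 to 595 CPM in tdTom-. The part of this load in the falls that remained after library scaling was not tested. Summed over the 31 lower members, transporter RNA made up 4291 to 9541 CPM (median 8583) in tdTom- and 1036 to 2103 CPM (median 1538) in tdTom+ libraries. Summed over the 5 higher members it was 81.4 to 129.5 CPM (median 88.7) in tdTom- and 268 to 314 CPM (median 293) in tdTom+.

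**Figure D1:**
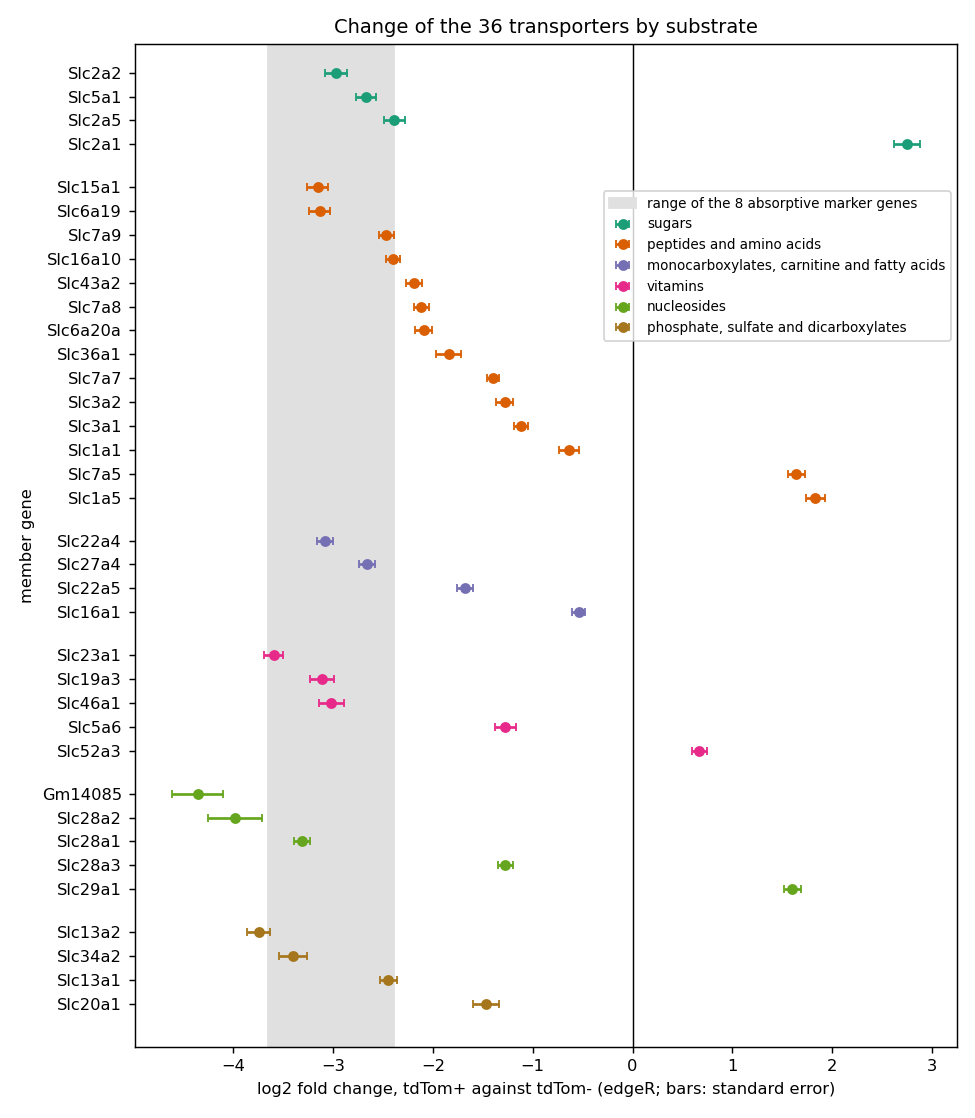
Log2 fold change of each of the 36 transporters, tdTom+ against tdTom-, by substrate class, from edgeR with the mouse as a block (points) with its standard error (bars, n = 8 mice). The grey band spans the 8 absorptive marker genes (-3.65 to -2.39); 3 members lie below it, 14 inside it and 14 lower members above it, and 5 members lie to the right of 0.

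The fall was graded. For 14 of the 31 lower members it was of the size seen in the absorptive markers, from *Slc23a1* (-3.59) to *Slc16a10* (-2.40). For 3 members, *Gm14085* (-4.36), *Slc28a2* (-3.98) and *Slc13a2* (-3.74), it was larger than that of any absorptive marker, the largest of which was *Apoa4* (-3.65). The other 14 fell by less than the least changed absorptive marker, *Fabp2*, and the smallest falls were those of *Slc16a1* (-0.54) and *Slc1a1* (-0.64). Without mouse 7 the counts below, inside and above the absorptive range were 3, 15 and 13. These positions are a description, since the differences between single members and markers were not tested.

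Among the sugar carriers, *Slc5a1*, which encodes the sodium/glucose cotransporter SGLT1 of the brush border, had 162 to 482 CPM in tdTom+ (median 289.6) and 1049.8 to 2368 CPM in tdTom- libraries (median 2054). The fractions did not overlap, and the level was 6.37-fold lower in tdTom+ (log2 -2.67 ± 0.10 SE, adjusted p = 5.67e-11, edgeR). *Slc2a2*, the gene of the basolateral carrier GLUT2, had 14.6 to 76.8 CPM (median 52.2) in tdTom+ against 126 to 519 CPM (median 454) in tdTom-. It was 7.82-fold lower (log2 -2.97 ± 0.11 SE, adjusted p = 3.72e-11, edgeR), again without overlap, and mouse 7 had the lowest value in both fractions. *Slc2a5*, the gene of the fructose carrier GLUT5, had 20.8 to 41.2 CPM (median 25.2) against 71.3 to 182 CPM (median 156), a 5.22-fold lower level (log2 -2.38 ± 0.10 SE). The exception in this class was *Slc2a1* (chromosome 4, 119108711 to 119137330), which encodes the widely used glucose carrier GLUT1. It had 55.2 to 84.8 CPM in tdTom+ (median 64.7) and 7.98 to 15.8 CPM in tdTom- (median 9.10). All 8 tdTom+ libraries were above all tdTom- libraries, and the level was 6.72-fold higher (log2 2.75 ± 0.13 SE, adjusted p = 4.13e-10, edgeR), the largest rise among the members. The highest tdTom- value was that of mouse 7, and without this mouse the log2 fold change was 2.90.

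The start regions of the most abundant lowered sugar carrier and of the raised one are shown because the pair moved in opposite directions. They are RefSeq windows on GRCm38.p6 from 250 bases before to 50 bases after the annotated start, 5′ to 3′ on the coding strand, with capitals for matches to the motifs searched. The *Slc5a1* window is chr5:33103969-33104268 (+) and the *Slc2a1* window is chr4:119108495-119108794 (+).
Slc5a1: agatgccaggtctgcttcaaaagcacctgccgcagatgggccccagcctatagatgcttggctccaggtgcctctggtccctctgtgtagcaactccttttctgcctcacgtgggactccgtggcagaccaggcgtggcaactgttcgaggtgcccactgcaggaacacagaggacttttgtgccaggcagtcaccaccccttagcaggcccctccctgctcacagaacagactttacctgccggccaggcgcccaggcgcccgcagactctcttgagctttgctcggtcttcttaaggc
Slc2a1: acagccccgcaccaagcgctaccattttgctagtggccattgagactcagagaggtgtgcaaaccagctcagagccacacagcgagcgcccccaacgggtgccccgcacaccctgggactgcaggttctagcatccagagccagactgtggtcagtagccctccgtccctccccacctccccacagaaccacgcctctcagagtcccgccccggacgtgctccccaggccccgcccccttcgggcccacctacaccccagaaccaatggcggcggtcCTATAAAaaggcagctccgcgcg
The *Slc2a1* window held 1 match, CTATAAA, 28 bases after the start. It matches on the minus strand the short pattern TTTATNG searched for the intestinal factor CDX2. That pattern was in the windows of 12.5% of all genes, so the match does not mark a site of this factor, and binding was not tested. The *Slc5a1* window held none of the 5 motifs.

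Among carriers of peptides and free amino acids at the brush border, *Slc15a1*, which encodes the proton-coupled peptide carrier PEPT1, was the most lowered. It had 18.5 to 58.7 CPM in tdTom+ (median 36.8) against 161 to 461 CPM in tdTom- (median 352), 8.90-fold lower (log2 -3.15 ± 0.10 SE, adjusted p = 1.41e-11, edgeR) with no overlap. *Slc6a19*, the gene of the sodium-coupled carrier of neutral amino acids B0AT1, had 31.6 to 63.2 CPM (median 50.2) against 231 to 552 CPM (median 491). It was lowered to a like degree (log2 -3.13 ± 0.11 SE). The imino acid carrier gene *Slc6a20a* had 25.7 to 72.0 CPM (median 59.8) against 81.9 to 382 CPM (median 248.7; log2 -2.09 ± 0.09 SE). The ranges came close to each other through mouse 7, whose tdTom- value was the lowest. *Slc36a1*, which encodes the proton-coupled carrier of small amino acids PAT1, had 37.6 to 56.6 CPM (median 46.1) against 80.3 to 236 CPM (median 193; log2 -1.84 ± 0.12 SE). *Slc1a1*, the glutamate and aspartate carrier gene, changed least in this class (log2 -0.64 ± 0.10 SE, adjusted p = 6.14e-05, edgeR). Its values were 22.8 to 37.7 CPM in tdTom+ (median 29.8) and 37.5 to 70.0 CPM in tdTom- (median 44.6). The highest tdTom+ values lay just above the lowest tdTom- value, although it was lower in tdTom+ in every mouse.

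The exchangers made of a heavy and a light chain were lowered in both heavy chains and in 3 of the 4 light chains among the members. *Slc3a1*, encoding rBAT, the partner of the cystine and dibasic amino acid exchanger subunit *Slc7a9*, had 47.8 to 92.3 CPM in tdTom+ (median 82.9) and 96.2 to 208 CPM in tdTom- (median 179; log2 -1.12 ± 0.07 SE). *Slc7a9* itself had 20.2 to 53.0 CPM (median 35.7) against 110.0 to 260.4 CPM (median 202; log2 -2.47 ± 0.08 SE). *Slc3a2*, encoding 4F2hc (CD98), the heavy chain of several basolateral exchangers, had 94.3 to 138 CPM (median 112) against 181 to 323 CPM (median 289.8; log2 -1.28 ± 0.09 SE). Each of these was free of overlap between fractions. Of the 4F2hc light chains among the members, *Slc7a7* (y+LAT1, which passes out dibasic amino acids) had 60.1 to 99.4 CPM (median 94.1) against 139 to 275 CPM (median 246; log2 -1.40 ± 0.06 SE). *Slc7a8* (LAT2, an exchanger of neutral amino acids) had 59.0 to 111 CPM (median 77.3) against 230.1 to 461 CPM (median 364; log2 -2.11 ± 0.07 SE). Both were lower in tdTom+ without overlap, with the lowest tdTom- value in mouse 7.

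*Slc7a5*, the light chain LAT1 that brings in large neutral amino acids, went the other way, as did the light chain genes *Slc7a6* (2.19 ± 0.11 SE) and *Slc7a11* (1.38 ± 0.21 SE) on the log2 scale, which are not members. *Slc7a11* was low, at 1.19 to 2.36 CPM in tdTom+ and 0.169 to 1.21 CPM in tdTom-, with overlapping ranges and 4 counts in its lowest library. On chromosome 8 (121881150 to 121907694), *Slc7a5* had 19.1 to 45.7 CPM in tdTom+ (median 23.0) and 5.32 to 17.9 CPM in tdTom- (median 6.71), 3.12-fold higher in tdTom+ (log2 1.64 ± 0.08 SE, adjusted p = 9.77e-10, edgeR). The fractions came within 1.14 CPM of each other, and both the highest tdTom+ and the highest tdTom- value belonged to mouse 7. *Slc1a5*, the gene of the glutamine exchanger ASCT2 (chromosome 7, 16781346 to 16798274), had 101 to 149 CPM (median 114) against 26.1 to 51.0 CPM (median 28.3). It was 3.56-fold higher (log2 1.83 ± 0.10 SE, adjusted p = 1.53e-09, edgeR), and the fractions were far apart in every mouse. The facilitative basolateral carriers were lowered. *Slc16a10* (TAT1, aromatic amino acids) had 28.1 to 58.6 CPM (median 44.6) against 132 to 311 CPM (median 256.3; log2 -2.40 ± 0.07 SE), and *Slc43a2* (LAT4) had 104 to 180.4 CPM (median 137) against 385 to 809 CPM (median 661; log2 -2.19 ± 0.08 SE).

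**Figure D2:**
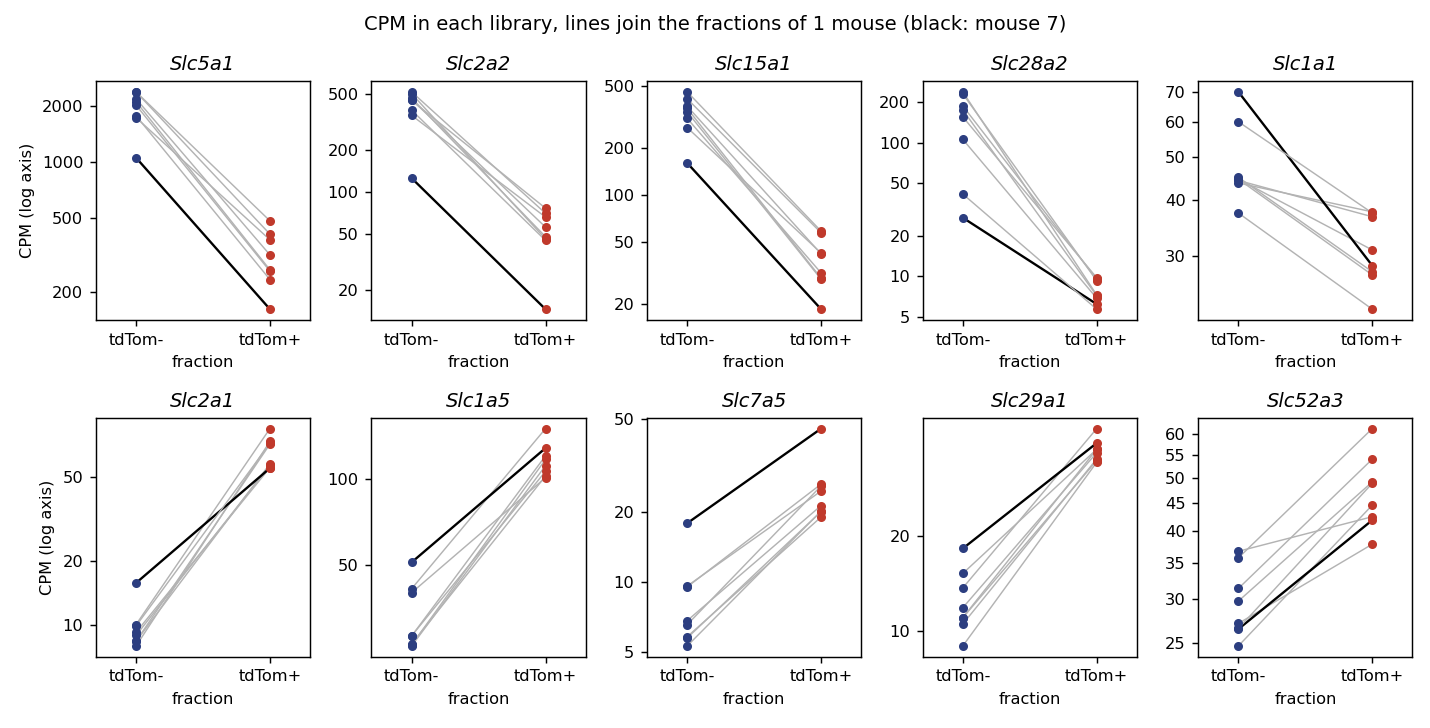
CPM (log axis) of 10 transporters in each library, with a line joining the tdTom- and the tdTom+ library of each of the 8 mice and mouse 7 in black. In the upper panels every line falls, from 1049.8 to 2368 CPM down to 162 to 482 CPM for Slc5a1; in the lower panels, which hold the 5 raised members, every line rises.

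All 4 carriers of monocarboxylates, carnitine and fatty acids were lower in tdTom+. *Slc27a4*, which encodes FATP4, the main fatty acid transport protein of enterocytes, had 91.3 to 222 CPM in tdTom+ (median 148) against 598 to 1205 CPM in tdTom- (median 948), 6.30-fold lower (log2 -2.66 ± 0.08 SE, adjusted p = 5.05e-12, edgeR). *Slc16a1*, the monocarboxylate carrier MCT1, showed the smallest change of all members. Its values were 76.7 to 110.0 CPM (median 97.0) against 123 to 161 CPM (median 134), which did not overlap (log2 -0.54 ± 0.07 SE, adjusted p = 6.16e-06, edgeR). The neighbouring organic cation carriers on chromosome 11 differed in size of change. *Slc22a4* (OCTN1; 53983123 to 54028090) had 1.85 to 6.14 CPM (median 3.18) against 17.1 to 41.1 CPM (median 29.6; log2 -3.08 ± 0.08 SE). *Slc22a5* (OCTN2, the carnitine carrier; 53864542 to 53891660) had 16.6 to 24.3 CPM (median 22.1) against 43.6 to 93.8 CPM (median 72.1; log2 -1.68 ± 0.08 SE). Of the 50-base words of *Slc22a5* transcripts, 26.3% also occur in transcripts of other genes, nearly all in its paralog *Slc22a21*, so its counts are uncertain by the reads those genes share.

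Of the 5 vitamin carriers 4 were lower in tdTom+. *Slc23a1* (SVCT1, vitamin C) had 0.852 to 4.67 CPM in tdTom+ (median 3.78) against 13.5 to 56.8 CPM in tdTom- (median 43.8), 12.1-fold lower (log2 -3.59 ± 0.10 SE, adjusted p = 2.31e-12, edgeR). *Slc46a1*, the proton-coupled folate carrier, had 6.66 to 42.1 CPM (median 17.5) against 40.4 to 237 CPM (median 182; log2 -3.01 ± 0.12 SE). Its ranges overlapped, because the tdTom- value of mouse 7 (40.4 CPM) was below the tdTom+ value of mouse 5 (42.1 CPM). *Slc19a3*, a thiamine carrier, was at 0.374 ± 0.245 CPM per kb of exon in tdTom+ cells (SD, n = 8), and with *Gm14085* (0.431 ± 0.124 CPM per kb), from which it did not differ beyond the spread, it had the lowest level of the members. It had 0.362 to 2.24 CPM (median 0.844) against 2.51 to 18.8 CPM (median 8.20; log2 -3.11 ± 0.12 SE). Its lowest library held 8 counts. *Slc5a6* (SMVT, biotin and pantothenate) had 5.21 to 8.15 CPM (median 6.70) against 10.6 to 19.1 CPM (median 17.04; log2 -1.27 ± 0.11 SE), and 13.6% of its 50-base words recur in other genes, mainly the pseudogene *Gm6157*. The riboflavin carrier gene *Slc52a3* (chromosome 2, 151996511 to 152009258) was higher, at 37.8 to 61.4 CPM (median 46.7) against 24.7 to 36.7 CPM (median 28.5). The rise was 1.59-fold (log2 0.67 ± 0.07 SE, adjusted p = 2.31e-06, edgeR), the smallest of the 5 rises, and the fractions were separated by 1.11 CPM.

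The nucleoside carriers held the most lowered members of the group and 1 of the raised ones. *Slc28a2*, which encodes the sodium-coupled purine nucleoside carrier CNT2, had 5.69 to 9.78 CPM in tdTom+ (median 7.23) and 27.5 to 239 CPM in tdTom- (median 165), 15.8-fold lower (log2 -3.98 ± 0.27 SE, adjusted p = 1.59e-08, edgeR). *Gm14085* had 1.54 to 3.32 CPM (median 1.95) against 9.21 to 85.5 CPM (median 56.7), 20.5-fold lower (log2 -4.36 ± 0.25 SE, adjusted p = 3.40e-09, edgeR). Both had the widest tdTom- ranges of the members, 8.71-fold and 9.28-fold from lowest to highest, and their lowest tdTom- values came from mice 7 (27.5 and 9.21 CPM) and 8 (41.3 and 15.96 CPM). Neither overlapped between fractions. *Slc28a1* (CNT1, pyrimidine nucleosides) had 2.81 to 18.0 CPM (median 9.75) against 30.5 to 151 CPM (median 103; log2 -3.31 ± 0.08 SE). *Slc28a3* (CNT3) fell less, from 21.9 to 32.1 CPM (median 23.7) in tdTom- to 7.77 to 14.5 CPM (median 10.3) in tdTom+ (log2 -1.28 ± 0.07 SE). *Slc29a1*, the gene of the equilibrative nucleoside carrier ENT1 (chromosome 17, 45585200 to 45599606), rose 3.03-fold, from 8.95 to 18.2 CPM (median 11.4) in tdTom- to 34.3 to 43.8 CPM (median 37.2) in tdTom+ (log2 1.60 ± 0.09 SE, adjusted p = 1.51e-09, edgeR). The tdTom+ values of this gene were close together in all 8 mice.

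*Slc28a2* (chromosome 2, 122426477 to 122461137, plus strand) and *Gm14085* (chromosome 2, 122484941 to 122528040, plus strand) lie next to each other. Of their transcripts' 50-base words, 1498 occur in both genes, 35.4% of those of *Slc28a2* and 30.3% of those of *Gm14085*. A read of 50 bases from those stretches cannot be placed in 1 of the genes, so the split of counts between them is uncertain. Their start regions are shown because these paralogs were the most lowered members. The windows are chr2:122426185-122426484 (+) for *Slc28a2* and chr2:122484691-122484990 (+) for *Gm14085* (RefSeq symbol *Slc28a2b*), written as above.
Slc28a2: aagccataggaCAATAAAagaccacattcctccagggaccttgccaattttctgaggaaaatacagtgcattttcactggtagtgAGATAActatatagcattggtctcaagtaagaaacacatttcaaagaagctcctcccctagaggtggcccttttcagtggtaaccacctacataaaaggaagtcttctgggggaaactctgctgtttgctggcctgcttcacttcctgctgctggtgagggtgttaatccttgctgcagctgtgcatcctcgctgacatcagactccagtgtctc
Gm14085: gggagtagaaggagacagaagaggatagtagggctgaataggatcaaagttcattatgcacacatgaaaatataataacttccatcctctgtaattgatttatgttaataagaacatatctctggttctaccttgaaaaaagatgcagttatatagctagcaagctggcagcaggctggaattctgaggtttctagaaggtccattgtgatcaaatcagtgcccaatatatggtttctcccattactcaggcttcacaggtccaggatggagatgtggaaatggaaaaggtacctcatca
Unlike the transcripts, these windows had little in common. The best local alignment spanned 27 positions with 19 identical bases (match 1, mismatch -1, gap -2), no longer than the best alignment of the *Slc28a2* window with the unrelated *Slc5a1* window (31 positions, 23 identical). The *Slc28a2* window held a CDX2 match beginning 239 bases and a GATA match beginning 165 bases before the start, and the *Gm14085* window held none.

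The phosphate, sulfate and dicarboxylate carriers were all lower in tdTom+. *Slc34a2* (NaPi-IIb, the sodium-phosphate cotransporter of the brush border) had 2.35 to 13.7 CPM (median 5.22) against 32.2 to 111 CPM (median 49.0), 10.6-fold lower (log2 -3.40 ± 0.14 SE, adjusted p = 9.16e-11, edgeR). It did not follow the other members in mouse 7, in which its tdTom- value (48.3 CPM) was near the median. *Slc20a1* (PiT-1, a widely used phosphate carrier) had 12.1 to 16.03 CPM (median 14.8) against 20.8 to 60.7 CPM (median 42.0; log2 -1.47 ± 0.13 SE). *Slc13a1* (NaS1, sulfate) had 5.81 to 18.4 CPM against 33.4 to 78.2 CPM (log2 -2.45 ± 0.08 SE). *Slc13a2* (NaDC1, di- and tricarboxylates such as succinate and citrate) had 4.01 to 15.9 CPM (median 10.6) against 58.1 to 166 CPM (median 142; log2 -3.74 ± 0.12 SE, adjusted p = 7.56e-12, edgeR). The fractions did not overlap for any of these genes.

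Levels of different genes were compared per kb of exon. In tdTom- cells *Slc5a1* was the highest member at 494 ± 110.4 CPM per kb (SD, n = 8), followed by *Slc27a4* at 211 ± 42.9 and *Slc15a1* at 108 ± 29.5 CPM per kb. The next genes in the order, *Slc3a2* (94.0 ± 15.0), *Slc7a8* (89.5 ± 16.2), *Slc6a20a* (89.1 ± 34.0) and *Slc6a19* (88.7 ± 21.5 CPM per kb), did not differ from their neighbours beyond the spread between libraries. In tdTom+ cells *Slc5a1* was again the highest member (79.6 ± 26.6 CPM per kb). By their means, the heavy chain genes *Slc3a2* (38.4 ± 4.68) and *Slc3a1* (34.2 ± 6.41) came next, with *Slc27a4* (33.8 ± 8.50) and *Slc1a5* (28.1 ± 3.88 CPM per kb) after them. After *Slc5a1*, neighbours in this order did not differ beyond the spread between libraries. *Slc2a1* moved from rank 32 to rank 7 and *Slc1a5* from rank 28 to rank 5 of the 36. *Slc7a5*, the member with the lowest mean in tdTom- (2.27 ± 1.13 CPM per kb), was at rank 22 in tdTom+ (6.86 ± 2.34 CPM per kb). In tdTom- it did not differ beyond the spread from the next gene, *Slc29a1* (3.13 ± 0.75 CPM per kb).

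**Figure D3:**
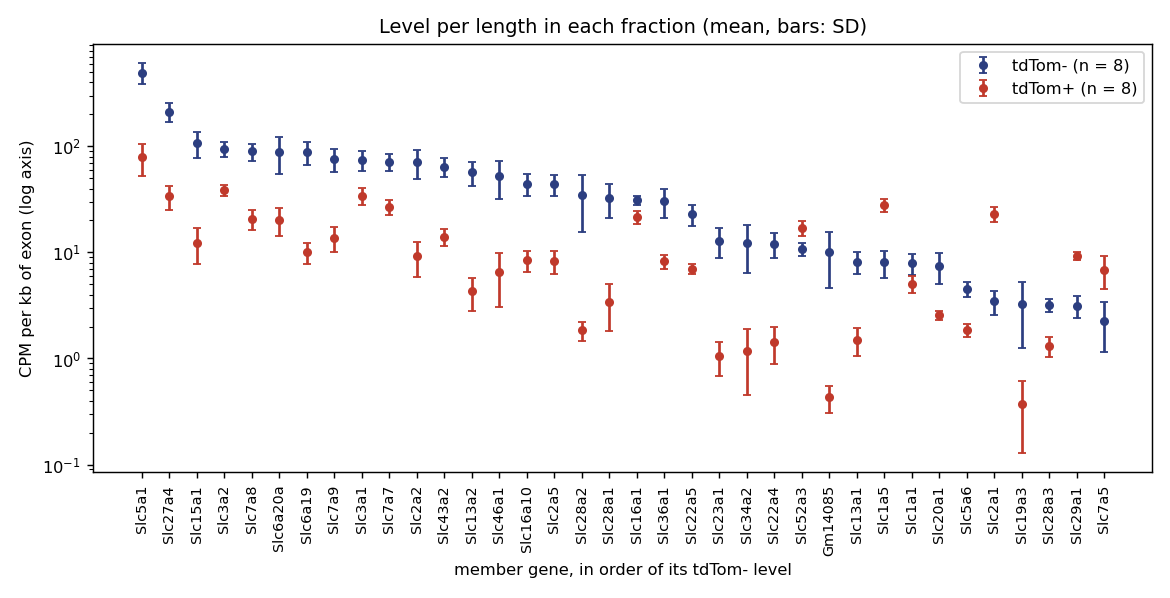
Level of each member per kb of exon (log axis), mean of 8 libraries with SD as bars, ordered by the tdTom- level. The tdTom- points (blue) run from 494 CPM per kb for Slc5a1 down to 2.27 for Slc7a5, and the tdTom+ points (red) lie above the blue ones for the 5 raised members.

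The make-up of carrier groups differed between fractions. Of the level per kb summed over 7 expressed facilitative Slc2 sugar carriers, *Slc2a2* held 34.7% to 52.5% (median 47.2%) in tdTom- and 6.03% to 21.6% (median 15.3%) in tdTom+ libraries, and *Slc2a1* held 1.71% to 8.81% (median 1.95%) and 32.8% to 45.8% (median 41.9%). Among 5 light chains of 4F2hc, *Slc7a8* fell from 51.3% to 58.6% in tdTom- to 28.4% to 41.7% in tdTom+, while *Slc7a5* rose from 0.797% to 4.54% (median 1.02%) to 8.24% to 23.9% (median 9.72%) and *Slc7a6* from 0.466% to 2.02% (median 0.795%) to 6.50% to 12.2% (median 10.1%). The share of *Slc7a7* overlapped between fractions (medians 43.6% in tdTom- and 44.6% in tdTom+). Of the 5 nucleoside carriers among the members, *Slc29a1* held 2.29% to 16.7% (median 2.94%) in tdTom- and 45.3% to 69.2% (median 58.5%) in tdTom+. The non-members *Slc29a2*, *Slc29a3* and *Slc29a4* were left out of this sum, and counting them would lower the shares. *Slc29a3* had 2.65 CPM per kb in tdTom+ and 1.73 in tdTom-. These shares were chosen after the members' values were known and were not tested.

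For 12 pairs of carriers with related substrates or joint function, the log2 ratio of their CPM was compared between the fractions of each mouse (exact two-sided sign-flip test over 8 mice, whose smallest possible p is 0.0078, Benjamini-Hochberg over the 12 pairs, threshold 0.05). The ratio of *Slc2a2* to *Slc2a1* changed most, from a median log2 ratio of 5.61 in tdTom- to -0.46 in tdTom+, a mean change of -5.72 ± 0.59 (SD, n = 8 mice, adjusted exact p = 0.0104, 8 of 8 mice). It was followed by *Slc6a19* to *Slc1a5* (-4.96 ± 0.60) and *Slc28a1* to *Slc29a1* (-4.91 ± 0.37), each pairing a lowered with a raised carrier. The light chain ratios *Slc7a8* to *Slc7a5* (-3.75 ± 0.35) and *Slc7a7* to *Slc7a5* (-3.04 ± 0.32) fell as well. All of these had the same adjusted exact p of 0.0104 and the same direction in 8 of 8 mice. In each of these pairs 1 carrier fell and the other rose in every mouse. The direction and p of these ratios were thus fixed by the changes already given for the members, and only their sizes add to them.

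Ratios also shifted within pairs in which both carriers fell. *Slc34a2* to *Slc20a1* changed by -1.96 ± 0.51, *Slc16a10* to *Slc16a1* by -1.86 ± 0.26, and *Slc7a9* to its heavy chain *Slc3a1* by -1.35 ± 0.29, in 8 of 8 mice each (adjusted exact p = 0.0104). The ratio of *Slc22a5* to *Slc22a4* rose by 1.40 ± 0.34 (adjusted exact p = 0.0104, 8 of 8 mice). *Slc5a1* to *Slc2a5* changed little, by -0.29 ± 0.28 (adjusted exact p = 0.0170, 7 of 8 mice), and without mouse 7 by -0.20. *Slc28a2* to *Gm14085* changed by 0.30 ± 0.22 (adjusted exact p = 0.0170, 7 of 8 mice), a value that depends on how shared reads were split. The ratio of the heavy chains *Slc3a1* to *Slc3a2* did not pass the test (0.17 ± 0.31, adjusted exact p = 0.164, 5 of 8 mice), and its SD was larger than its mean.

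**Figure D4:**
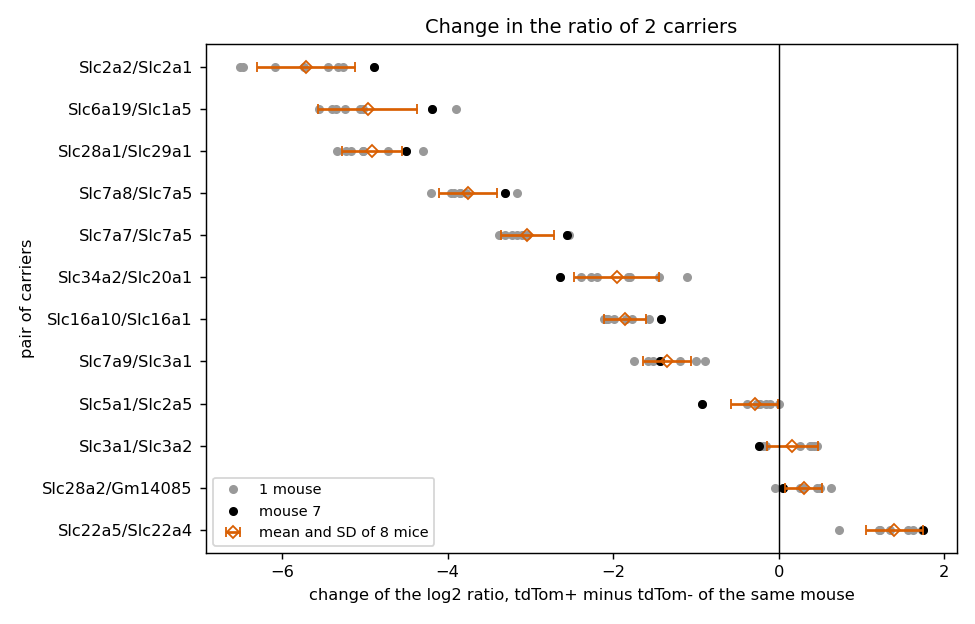
Change in the log2 ratio of paired carriers, tdTom+ minus tdTom- of the same mouse, for 12 pairs; grey points are mice, the black point is mouse 7, and diamonds with bars are the mean and SD of 8 mice. The means run from -5.72 for Slc2a2/Slc2a1 to 1.40 for Slc22a5/Slc22a4, and the points of Slc3a1/Slc3a2 lie on both sides of 0.

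Libraries of 1 fraction also differed among mice. In tdTom-, mouse 7 had the lowest value of 27 of the 31 lower members, with a median deviation of -0.97 (log2) from the median of the fraction, and the highest value of 4 of the 5 raised members. In tdTom+, mouse 7 was lowest for 20 of the 31 and mouse 5 was highest for 18. The lower members that did not follow this in tdTom- of mouse 7 were *Slc1a1*, *Slc16a1* and *Slc28a3*, which were at their highest there, and *Slc34a2*. Among the raised members it was *Slc52a3*, with 26.5 CPM there in a tdTom- range of 24.7 to 36.7 CPM. Within the pairs of libraries the median change over the 31 members was -2.18 in mouse 7 and -2.70 to -2.15 over all 8 mice, and the 5 raised members rose by a median of 1.32 in mouse 7 against 1.33 to 1.96 in the others. Single members departed from these medians. Of the 31, 9 fell less in mouse 7 than in any other mouse and 2 fell more, and 4 of the 5 raised members rose less. The most lowered members were among the former, with changes of -2.18 in mouse 7 against -5.52 to -3.30 in the others for *Gm14085* and of -2.13 against -5.02 to -2.84 for *Slc28a2*. The absorptive mean of mouse 7 was lowest in both fractions. The part of this and of its other marker differences in the spread of the members was not tested.

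**Figure D5:**
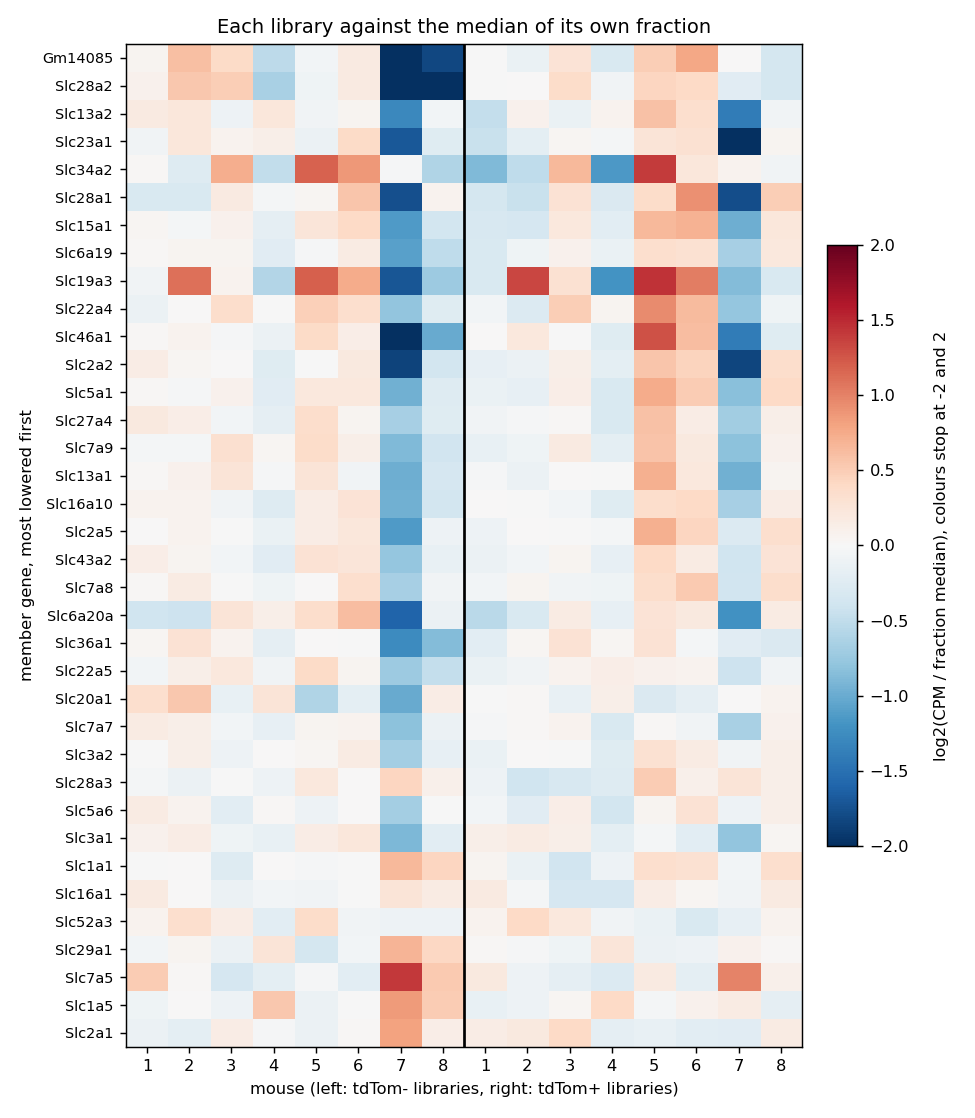
Log2 of the CPM of each member in each library over the median of that fraction, with tdTom- libraries on the left, tdTom+ libraries on the right and members from most lowered to most raised. The tdTom- column of mouse 7 is blue for most of the 31 lower members (median deviation -0.97) and red for Slc2a1, Slc1a5, Slc7a5 and Slc29a1.

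Other SLC carriers of the same kinds of substrate were split in direction. Of 81 listed, 69 were tested, and 31 were lower, 26 were higher and 12 did not pass, with a median log2 fold change of -0.01. These were 44.9% lower and 37.7% higher of those tested, against 30.0% and 25.8% of all genes tested. The lowest were *Slc7a15* (-4.03 ± 0.13 SE), *Slc5a12* (-3.95 ± 0.10 SE), which carries monocarboxylates such as lactate with sodium, and *Slc2a7* (-3.52 ± 0.12 SE), a sugar carrier gene next to *Slc2a5* on chromosome 4. The highest were *Slc2a10* (5.74 ± 0.11 SE), the gene of GLUT10, *Slc36a4* (5.50 ± 0.14 SE), the gene of the amino acid carrier PAT4, and *Slc43a1* (5.50 ± 0.35 SE), the gene of LAT3. *Slc2a10* had 26.9 to 41.3 CPM in tdTom+ against 0.319 to 0.929 CPM in tdTom-, whereas *Slc43a1* had only 2.17 to 4.41 CPM against 0 to 0.211 CPM, the latter near the level of 3 counts. The paralogs *Slc6a20a* and *Slc6a20b*, which share 15.3% of the 50-base words of *Slc6a20a*, fell alike (-2.09 and -2.17).

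Genes that assist or drive the members were mixed. Of 20 listed, 19 were tested, and 11 were lower, 4 higher and 4 did not pass. The shares of those tested were 57.9% lower and 21.1% higher, against 30.0% and 25.8% of all genes tested. Those lowered included *Pdzk1* (-3.41 ± 0.10 SE), a scaffold protein of the brush border, and *Slc9a3* (-2.73 ± 0.12 SE), the sodium/proton exchanger NHE3. The highest were *Slc9a3r2* (3.89 ± 0.16 SE), a scaffold protein of the NHERF family, *Pdzk1ip1* (1.32 ± 0.14 SE) and *Emb* (1.23 ± 0.18 SE), a chaperone of monocarboxylate carriers. All 3 were at low levels, up to 7.46 CPM.

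Motifs of intestinal and stress-responsive factors were looked for on both strands of the RefSeq start windows, which matched 31 members (29 lower and 2 higher). *Slc1a5*, *Slc7a5*, *Slc23a1*, *Slc52a3* and *Slc13a1* had no entry. The HNF1 motif TTAATNATT was in the windows of 2 members (6.45%), *Slc7a8* and *Slc7a9*, against 1.72% of 27025 genes with a window. The HNF4 motif CAAAGTCCA was in that of 1 member (3.23%), *Slc3a1*, against 0.555%. For the others the shares were 16.1% against 12.5% for the CDX2 motif TTTATNG, 16.1% against 12.7% for the GATA motif AGATAA, and 3.23% against 4.51% for the motif TGATGNAA of ATF4 with C/EBP. With so few matches these shares describe the windows and no more, and 6 members had several annotated starts, any of which could hold a match.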

How the data were processed

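Reads were aligned by the authors with TopHat2 (GRCm38) and counted per Ensembl gene. The deposited files hold raw counts, made with featureCounts 1.5.0-p1 on exons of the reverse strand with primary alignments only per the file headers, while the submitters' processing notes name Subread 1.5.2, TopHat2 2.1.1, DESeq2 1.14.1 and GRCm38.p3. A read that maps to several near-identical genes is counted once, so paralogs can trade reads. Symbols from a table of gene names matched 44585 of 45513 identifiers. Coordinates are those of the files (GRCm38, lowest to highest exon base).

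The members, lists, pairs and tests were chosen with earlier results of these data known. Every gene was fitted, and only members and listed genes are shown. Genes passing filterByExpr were scaled by TMM and tested with the quasi-likelihood F-test of edgeR 4.0.16 (R 4.3.3) with a replicate block for the mouse number, and p values were adjusted over 15323 genes by the Benjamini-Hochberg method with a threshold of 0.01. The standard error is the log2 fold change over the square root of F. CPM values are TMM-normalised, and pair ratios and marker means used log2 CPM with a prior count of 2. Numbers in the titles pair the fractions, and the series design gives both from each mouse. Deviations of same-numbered libraries from their group means correlated at 0.245 to 0.634 over genes (mean 0.426), and 8 of 8 matched their own number best. The mean for different numbers (-0.06) follows largely from subtracting the group means, so it is no separate comparison. The fit was tested on simulated data with known changes. Nothing in the labels gives the sex of each mouse or a sequencing batch, so neither was tested. The named genes were all members and, from each of the other lists, the 3 most lowered and the 3 most raised genes that passed. Some results that this rule names are not reported here. *Fabp2*, *Apoa4*, *Vim*, the stromal genes near 0, *Slc7a6*, *Slc7a11* and *Slc6a20b* were named after their values were seen. Alternatives were no block, RLE factors, total counts, DESeq2 1.42.0, limma-voom (limma 3.58.1), no filter, at least 10 counts in every library, an adjusted p of 0.05, a change of at least 1 on the log2 scale, a prior count of 0.5, and leaving out each mouse. The 50-base words came from GENCODE M21 transcripts, and start windows from RefSeq.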

Additional observations from a re-analysis of the deposited data

Results flagged for a closer look

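A library was singled out where the gap between it and the nearest of the 8 libraries of its fraction exceeded Dixon's 95% critical value as a share of their whole range in log2 CPM. Of 96 sets of 8 values tested, 24 had such a library, where chance alone gives about 1 in 20 sets (4.8), and in all 24 it came from mouse 7. The sets share the same libraries and are not independent.

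In the tdTom- fraction, mouse 7 was singled out by this rule as lowest for 12 members. The gap of *Slc13a2* was 0.775 of the range, with 5.86 log2 CPM in mouse 7 and 7.04 to 7.38 in the other 7 mice. Next were the sugar carriers *Slc2a5* with 0.735 (6.16 against 7.15 to 7.51) and *Slc2a2* with 0.728 (6.98 against 8.46 to 9.02). The vitamin C carrier gene *Slc23a1* had a gap of 0.697 (3.77 against 5.21 to 5.83), *Slc7a7* one of 0.675, *Slc28a1* one of 0.623, *Slc3a2* one of 0.620, *Slc5a1* one of 0.609 (10.04 against 10.75 to 11.21) and *Slc3a1* one of 0.604. Smaller gaps were those of *Slc7a8* at 0.579, *Slc5a6* at 0.560 and *Slc6a20a* at 0.533. *Slc2a1* was the member that stood out upwards in tdTom- of mouse 7, with a gap of 0.661 (3.99 against 3.01 to 3.35).

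In the tdTom+ fraction, mouse 7 was singled out as lowest for *Slc23a1* with a gap of 0.688 (-0.08 against 1.53 to 2.25) and *Slc2a2* with 0.681 (3.88 against 5.50 to 6.27). It was also singled out as lowest for *Slc3a1* with 0.619 (5.58 against 6.17 to 6.53) and as highest for *Slc7a5* with 0.628 (5.52 against 4.26 to 4.73).

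Of the log2 ratios of paired carriers, that of *Slc2a2* to *Slc2a1* was lowest in mouse 7 in both fractions, with gaps of 0.742 in tdTom- (2.98 against 5.14 to 5.89) and 0.554 in tdTom+ (-1.91 against -0.62 to 0.41). The ratio of *Slc7a7* to *Slc7a5* had gaps of 0.636 in tdTom- and 0.741 in tdTom+, and that of *Slc7a8* to *Slc7a5* had 0.563 and 0.538. The ratio of *Slc28a1* to *Slc29a1* stood out in tdTom- alone with 0.679 (0.74 against 2.80 to 3.77). Without mouse 7 the fold changes of the members named here kept their direction and passed the threshold.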

How the results depend on the processing

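The 31 lower and 5 higher members kept their direction and their side of the threshold in all 539 combinations of member and alternative fit. With at least 10 counts in every library, *Slc19a3* was not tested and 30 members were lower. With a required change of at least 1 on the log2 scale the counts were 29 lower and 4 higher. Without the replicate block the counts were also 31 and 5, and the block changed no call of a member; the values moved most for *Slc28a2*, from -3.98 to -4.23. Leaving out each mouse gave 31 lower and 5 higher members throughout, with *Slc28a2* from -4.20 to -3.78 and *Slc52a3* from 0.64 to 0.76. Of the other carriers 29 to 30 were lower and 25 to 28 higher, and of the partner genes 10 to 11 were lower and 4 to 5 higher. All 12 pair contrasts stayed on their side of the threshold in the 120 alternatives, including the unpaired test without the replicate block, in which *Slc3a1* to *Slc3a2* again did not pass (adjusted exact permutation p = 0.205). The median of all genes moved up by 0.105 without mouse 3 and by 0.106 with at least 10 counts in every library, and the split of all calls turned from 4600 lower and 3956 higher to 3626 and 4529, and to 3356 and 4448, respectively; the cause was not tested. In these settings the smallest fall, that of *Slc16a1*, was -0.41 and -0.42, larger in size than the shift. Depth limits *Slc19a3*, *Slc23a1* and *Gm14085* most, whose lowest libraries held 8, 17 and 29 counts.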
